A study of Mus musculus with 4 samples.

Results

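Endotoxin is the lipopolysaccharide of the outer membrane of Gram-negative bacteria. The 9 genes described here are Lbp, Cd14, Tlr4, Ly96, Tlr2, Tlr3, Myd88, Ticam1 and Nod1. They encode proteins that carry endotoxin, bind it or signal from it, together with sensors of other microbial products. They were chosen by name, and all 9 had at least 1 probe on the arrays, with 10 probes in all among 39429 non-control probes and 30195 gene names. RNA was measured on 4 arrays of endothelial cells from mouse spleen, sorted as living single cells without the leukocyte protein CD45 and with the endothelial protein CD31. ACKR4-positive cells carried green fluorescent protein (GFP) from the Ackr4 locus (2 arrays), and ACKR4-negative cells lacked it (2 arrays). All mice of both groups were Ackr4GFP/wt, with 1 reporter allele and 1 wild-type allele. The labels name no endotoxin treatment and give neither age nor sex. Each of the 2 sorts drew on 2 to 3 pooled mice and gave 1 array per group. Spleens had been digested at 37 °C for 45 and then 20 minutes, and the cells were chosen by the reporter and not by ACKR4 protein.

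Lipopolysaccharide-binding protein, the product of Lbp, is a plasma protein best known from the acute-phase response of the liver. It draws single endotoxin molecules out of aggregates and membranes and passes them to CD14, which hands them to MD-2, the product of Ly96, held on the receptor TLR4. TLR4 then signals through the adaptor MyD88 at the cell surface and through the adaptor TRIF, the product of Ticam1, from endosomes. TLR2 recognises bacterial lipoproteins, TLR3 double-stranded RNA and NOD1 fragments of peptidoglycan in the cytosol. The spleen filters blood, and its sinusoidal endothelium and macrophages meet circulating bacterial products.

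The probes of Lbp and Ly96 are shown because they identify the transcripts read for the protein that carries endotoxin and for the one that binds it on TLR4. Each is 60 bases long, written 5′ to 3′ as in the scanner files, on the plus strand of mm9. The coordinates of each span more than its length, so both probes cross an intron and match spliced RNA.
Lbp: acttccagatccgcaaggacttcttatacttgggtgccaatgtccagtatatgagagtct
Ly96: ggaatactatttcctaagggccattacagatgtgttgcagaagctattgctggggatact
The Lbp probe lies at chr2:158154142-158157684, a span of 3543 bases, and matches NM_008489. The Ly96 probe lies at chr1:16696289-16699561, a span of 3273 bases, and matches NM_016923. G and C make up 45% of the Lbp probe and 43.3% of the Ly96 probe.

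Signal was well above background for 54.9% to 58.3% of the probes of each array. All 14 pan-endothelial marker genes were well above background on all 4 arrays, among them Pecam1, which encodes CD31, and the endothelial cadherin gene Cdh5. Of these 14 markers 4 fell in ACKR4-positive cells, with log2 fold changes of -6.61 for Vwf, -5.24 for Emcn, -2.71 for Kdr and -1.92 for Esam (adjusted p = 0.00776, 0.0464, 0.0459 and 0.0307, limma). Ptprc, which encodes CD45, was so on 1 array, that of ACKR4-positive replicate 2. Ackr4 checked the sort, with levels of -0.21 and 2.55 in ACKR4-positive cells against -7.53 and -7.50 in ACKR4-negative cells. The median signal of the spiked-in control RNA was 2749 and 2902 on the ACKR4-positive arrays, against 837 on ACKR4-negative replicate 1 and 3489 on ACKR4-negative replicate 2. Of 17362 tested genes, 976 were called at an adjusted p under 0.05, with 332 risen and 644 fallen.

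Lbp, whose product carries endotoxin to CD14, was the 1 member called. Its level, the log2 signal above or below the array's 75th percentile, was 1.12 and 1.50 in ACKR4-positive replicates 1 and 2, against -3.63 and -3.60 in ACKR4-negative replicates 1 and 2. The groups were far apart, and within each group the 2 arrays lay close together. On the linear scale the processed signal was 2062 and 1668 in ACKR4-positive cells, against 62.0 and 54.1 in ACKR4-negative cells. All 4 spots of the Lbp probe were well above background on all 4 arrays, so the low values were measured and were not set by the detection limit. Lbp rose by a log2 fold change of 4.93 ± 0.29 (standard error of the fit, n = 2 arrays per group), a 30.4-fold higher signal, with an adjusted p of 0.00776 by limma. Its 95% interval was 4.16 to 5.69. The log2 difference between ACKR4-positive and ACKR4-negative cells was 4.75 in the first sort and 5.10 in the second. Without any 1 of the 4 arrays, ACKR4-negative replicate 1 with its weak spike-in signal included, the log2 fold change of Lbp was 4.74 to 5.12 and the call remained (adjusted p = 0.0187 to 0.0260, limma).

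Markers of leukocytes and of sinusoidal endothelium were set beside Lbp. Of 10 tested macrophage markers and 5 tested monocyte and granulocyte markers, 0 were called by limma in either direction, and 1 of each list had an unadjusted p under 0.05, Marco and Lyz2, both lower in ACKR4-positive cells. With the replicate number as a block, 3 macrophage markers were called, Marco, C1qc and C1qa, and 2 monocyte and granulocyte markers, Lyz2 and S100a9. All of these were lower in ACKR4-positive cells, and 15.3% of all tested genes were called with the block. C1qc, C1qa, Lyz2 and S100a9 were not well above background on ACKR4-positive replicate 1. Of the other leukocyte lists, 0 of 3 dendritic cell markers (also 0 at an unadjusted p under 0.05) and 1 of 7 lymphocyte markers, a fall, were called. The summed signal of the 17 macrophage markers, in multiples of the array's 75th percentile, was 10.9 and 6.64 in ACKR4-positive cells and 15.9 and 13.9 in ACKR4-negative cells. Most of this was Mrc1, a mannose receptor gene that the sinusoidal endothelial list also holds, and without it the sums were 3.34 and 2.79 in ACKR4-positive cells and 3.22 and 4.37 in ACKR4-negative cells, which overlap. The dendritic cell sums also overlapped, at 45.8 and 152 in ACKR4-positive cells and 56.8 and 141 in ACKR4-negative cells. Most of each dendritic cell sum was Siglech, with levels of 5.48 and 7.24 in ACKR4-positive cells and 5.81 and 7.13 in ACKR4-negative cells. That overlap therefore rests on Siglech, and sums without it were not taken. Sinusoidal endothelial markers were brighter in sum, at 505 and 636 in ACKR4-positive cells against 226 and 167 in ACKR4-negative cells, with 3 of 11 tested members risen and 0 fallen. Over all tested genes 1.91% rose and 3.71% fell. Of the 3 rises, that of Wnt2 came from a probe well above background in ACKR4-positive cells only. Wnt2 was tested only because it was bright in that group. Clec4g, a C-type lectin gene of sinusoidal endothelium, gave 172 and 381 of the sums in ACKR4-positive cells and 4.96 and 12.0 in ACKR4-negative cells. Without it they were 334 and 256 in ACKR4-positive cells against 221 and 155 in ACKR4-negative cells. The largest part of each of these was Stab2, with levels of 7.58 and 7.18 in ACKR4-positive cells and 6.82 and 6.28 in ACKR4-negative cells. Stab2 was not called (log2 fold change 0.84, adjusted p = 0.351, limma), and sums without it were not taken. The list's median log2 fold change was 0.08, and 5 members were higher and 4 lower in both sorts. With the replicate block 4 members of the list were called higher, Stab1 being the further rise (adjusted p = 0.0128, limma). Only 1 member was called lower with the block, Oit3, at -1.56 (adjusted p = 0.0203, limma). The part of differing cell types in the Lbp difference was not tested, and in sorted pools fewer cells of a type and less RNA per cell cannot be told apart.

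**Figure D1:**
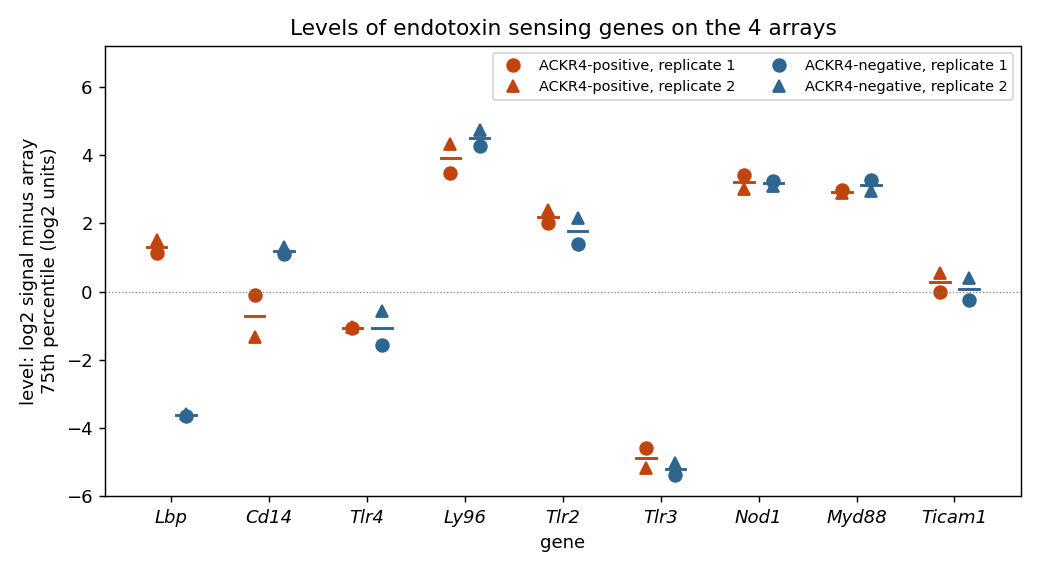
Levels of the 9 genes (log2 signal minus the array's 75th percentile, vertical axis) on the 2 ACKR4-positive arrays (red, left) and the 2 ACKR4-negative arrays (blue, right) of each gene, with circles for replicate 1, triangles for replicate 2 and bars for group means. Lbp stood at 1.12 and 1.50 in ACKR4-positive cells against -3.63 and -3.60 in ACKR4-negative cells, and heights should be compared within a gene and not between genes.

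Cd14, the co-receptor that takes endotoxin from lipopolysaccharide-binding protein, had the other difference of over 2-fold, in the opposite direction to Lbp. Its level was -0.09 and -1.33 in ACKR4-positive replicates 1 and 2, against 1.10 and 1.29 in ACKR4-negative replicates 1 and 2. Both ACKR4-positive arrays lay below both ACKR4-negative arrays, and the ACKR4-positive arrays were 1.24 apart. Its processed signal was 892 and 235 in ACKR4-positive cells, against 1652 and 1607 in ACKR4-negative cells, from a probe on chromosome 18 at 36884969 to 36885028 (mm9, minus strand). The log2 fold change of Cd14 was -1.91 ± 0.49 (95% interval -3.21 to -0.61) and was not called (adjusted p = 0.140, limma). With the replicate number as a block, which sets the 2 groups against each other within each sort, its adjusted p was 0.0313 (limma). The log2 difference was -1.19 in the first sort and -2.62 in the second.

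Cd14 is a gene of macrophages and granulocytes as well as of some endothelium, and some markers of those cells also had lower values in ACKR4-positive cells. Of the 10 tested macrophage markers, 6 were lower in both sorts and 0 were higher in both, where 73.1% of all tested genes kept 1 sign in both sorts. Mrc1 was among the 6, and the sums overlapped without it. Marco, a scavenger receptor gene of macrophages, had levels of -3.64 and -3.23 in ACKR4-positive cells and -2.29 and -1.71 in ACKR4-negative cells (adjusted p = 0.124, and 0.0124 with the replicate block, limma). Lyz2, the lysozyme gene of myeloid cells, had levels of -6.66 and -1.72 in ACKR4-positive cells and 1.04 and 1.46 in ACKR4-negative cells (adjusted p = 0.206, and 0.0263 with the replicate block, limma). S100a9, a granulocyte gene, had levels of -7.25 and -1.005 in ACKR4-positive cells and -4.20 and 0.43 in ACKR4-negative cells (adjusted p = 0.800, and 0.0248 with the block, limma). On ACKR4-positive replicate 1, Lyz2 and S100a9 lay under the lowest level well above background there, -6.03. Their differences in the first sort therefore rest on values that were not measured above background. Across the 11 monocyte and granulocyte markers on the arrays, the summed signal was 58.6 and 118 in ACKR4-positive cells and 61.3 and 110 in ACKR4-negative cells, which overlap. Most of each sum was Csf3r, with levels of 5.83 and 6.83 in ACKR4-positive cells and 5.82 and 6.67 in ACKR4-negative cells. The overlap therefore rests on that gene, and sums without it were not taken. Of the 17 macrophage markers 8 were well above background on all 4 arrays, among them Adgre1, Csf1r and Cd68, and 5 on none, namely Cd163, Vsig4, Siglec1, Clec4f and Timd4. The part of myeloid RNA in the Cd14 difference was not tested.

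Ly96 and Tlr4, which together form the endotoxin receptor, were detected in both groups. Ly96 had levels of 3.49 and 4.33 in ACKR4-positive cells, against 4.26 and 4.73 in ACKR4-negative cells. The groups overlapped, since ACKR4-positive replicate 2 lay above ACKR4-negative replicate 1. Its log2 fold change was -0.58 ± 0.41 (95% interval -1.68 to 0.51, adjusted p = 0.641, limma), with lower values in ACKR4-positive cells in both sorts.

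Tlr4, read by the probe of NM_021297 on chromosome 4 at 66503470 to 66503529 (mm9, plus strand), had levels of -1.08 and -1.03 in ACKR4-positive cells, against -1.56 and -0.57 in ACKR4-negative cells. Both ACKR4-positive values lay between the ACKR4-negative ones, and the 2 sorts ran in opposite directions (0.48 and -0.47). The log2 fold change of 0.01 ± 0.42 was not called (adjusted p = 0.998, limma), and its 95% interval, -1.10 to 1.11, does not show that the groups were alike. A further Tlr4 probe, for transcript ENSMUST00000107365 at 66590077 to 66590136 on chromosome 4, had levels of -7.89 and -7.24 in ACKR4-positive cells and -7.11 and -7.39 in ACKR4-negative cells. It was not well above background in any of its 16 spots, and 15 of them held surrogate values.

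Among the sensors of other microbial products, Tlr2 had levels of 2.01 and 2.38 in ACKR4-positive cells, against 1.39 and 2.16 in ACKR4-negative cells. It was higher in ACKR4-positive cells in both sorts, by 0.62 and 0.22, but ACKR4-negative replicate 2 lay above ACKR4-positive replicate 1. The log2 fold change of Tlr2 was 0.42 ± 0.39 (95% interval -0.60 to 1.44, adjusted p = 0.743, limma).

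Nod1 had levels of 3.42 and 3.01 in ACKR4-positive cells, against 3.25 and 3.097 in ACKR4-negative cells. The 2 ACKR4-negative values lay between the ACKR4-positive ones. Its log2 fold change was 0.04 ± 0.30 (95% interval -0.75 to 0.82, adjusted p = 0.978, limma).

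Tlr3 was near the detection limit. Its levels were -4.58 and -5.18 in ACKR4-positive cells, against -5.38 and -5.02 in ACKR4-negative cells, with overlapping groups. Of 4 spots per array, 4 and 2 were well above background on ACKR4-positive replicates 1 and 2, against 1 and 2 on ACKR4-negative replicates 1 and 2. It therefore failed the filter on dim probes and was not among the tested genes. When every probe was fitted without that filter, its log2 fold change was 0.32 ± 0.38 (adjusted p = 0.972, limma).

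Both adaptors were well above background on all 4 arrays, and neither was called. Myd88 had levels of 2.96 and 2.88 in ACKR4-positive cells, against 3.27 and 2.96 in ACKR4-negative cells, a log2 fold change of -0.19 ± 0.28 (95% interval -0.94 to 0.55, adjusted p = 0.848, limma). ACKR4-positive replicate 1 and ACKR4-negative replicate 2 nearly coincided. Ticam1 had levels of -0.01 and 0.56 in ACKR4-positive cells, against -0.25 and 0.40 in ACKR4-negative cells. Its groups overlapped, and in each group replicate 2 was the higher array. The log2 fold change of Ticam1 was 0.20 ± 0.38 (95% interval -0.82 to 1.22, adjusted p = 0.891, limma).

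**Figure D2:**
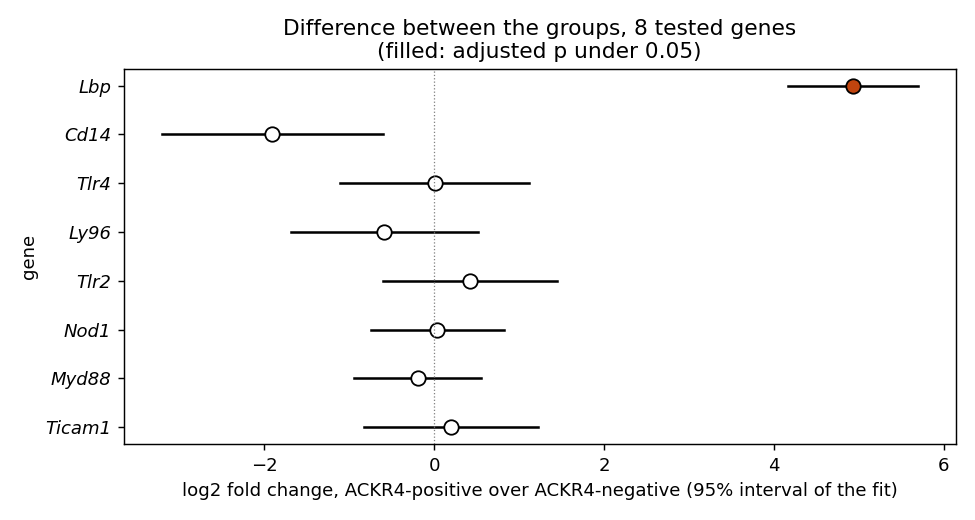
Log2 fold change of ACKR4-positive over ACKR4-negative cells (horizontal axis) for the 8 tested genes, with the 95% interval of the fit and n = 2 arrays per group. Lbp, the filled point at 4.93, was called, Cd14 at -1.91 was not, and the intervals of the other 6 genes include 0.

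Of the 9 genes, 8 passed the filter on dim probes, each on all 4 arrays, and 1 of these 8 was called, Lbp. Over all tested genes 5.62% were called, 1.91% as risen and 3.71% as fallen, so 1 call among 8 genes is not a result about the group. At an unadjusted p under 0.05, Lbp and Cd14 passed, beside 16.3% of all tested genes, and the same 2 differed by at least 2-fold, beside 17.1%. With the replicate block 2 of the 8 were called, Lbp risen and Cd14 fallen, where 15.3% of all tested genes were called, 6.75% as risen and 8.55% as fallen. The arrays of the 2 groups did not overlap for 2 members, Lbp and Cd14, against 44.9% of all tested genes. In both sorts 3 members were higher in ACKR4-positive cells and 3 were lower, while Tlr4 and Nod1 differed in sign between the sorts. The sign was the same in both sorts for 73.1% of all tested genes. The median log2 fold change of the 8 genes was 0.02, beside 0.04 over all tested genes. The remaining 6 tested members differed by less than 2-fold, and their intervals do not show that the groups were alike.

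**Figure D3:**
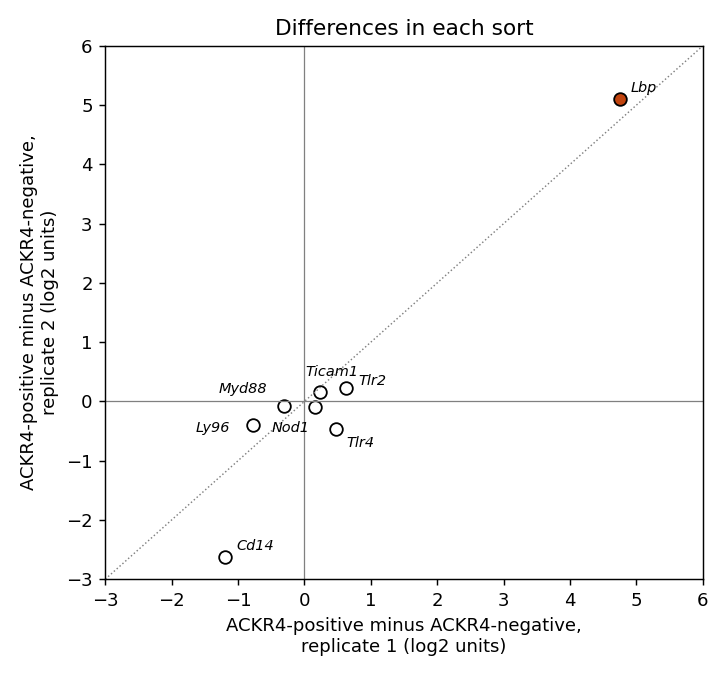
Difference of ACKR4-positive minus ACKR4-negative cells in log2 units in the first sort (replicate 1, horizontal axis) and the second sort (replicate 2, vertical axis) for the 8 tested genes, with the dotted line marking equal differences. Lbp lies at 4.75 and 5.10, Cd14 at -1.19 and -2.62, and the other 6 genes lie within 1 log2 unit of 0 on both axes.

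The genes most like Lbp over the 4 arrays, by the root mean square distance between levels centred on each gene's mean, were Tub, Dync1i1 and Rbfox1, with distances of 0.14, 0.26 and 0.29 log2 units. Tub had levels of -2.52 and -2.52 in ACKR4-positive cells and -7.39 and -7.40 in ACKR4-negative cells. The ACKR4-negative levels of Tub lay under the lowest levels well above background there, -5.58 and -5.56, so its distance and its rank rest on values that were not measured above background. Dync1i1, which encodes an intermediate chain of the dynein motor, had levels of 2.31 and 2.10 in ACKR4-positive cells and -2.61 and -2.32 in ACKR4-negative cells. Rbfox1, which encodes a splicing regulator, had levels of 0.61 and 0.37 in ACKR4-positive cells and -4.65 and -4.08 in ACKR4-negative cells. With 4 arrays, this likeness rests mainly on the size of the group difference.

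Other genes of the pathway were taken from 6 lists that held 122 genes, of which 85 were tested. Of these 85, 2 rose and 9 fell, 12.9% called beside 5.62% of all tested genes, and their median log2 fold change was 0.05 beside 0.04. For 4 of the 9 falls, those of Tlr12, Clec4d, Nod2 and Alpl, the probe was well above background in ACKR4-negative cells only. Such genes were tested only because they were bright in that group. An "at least" fold below sets the lowest detected signal against it under the main background correction. With normexp correction the folds were smaller than these bounds, at 6.09 for Tlr12, 5.00 for Clec4d, 3.16 for Nod2 and 4.85 for Alpl, lower in ACKR4-positive cells.

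Of the genes that bind or handle endotoxin or sense it in the cytosol, 1 of 15 tested members rose and 4 fell, with a median log2 fold change of 0.23. Scarb1, a lipoprotein receptor of endothelium and liver that also takes up endotoxin, had levels of 1.22 and 1.19 in ACKR4-positive cells, against 4.31 and 4.59 in ACKR4-negative cells. It fell by 3.25 ± 0.28 on the log2 scale (adjusted p = 0.0125, limma), and its second probe gave -2.94. Cd36, a scavenger receptor for fatty acids that also serves as a co-receptor of TLR2, had levels of 4.80 and 4.29 in ACKR4-positive cells, against 6.61 and 6.53 in ACKR4-negative cells. Its log2 fold change was -2.03 ± 0.31 (adjusted p = 0.0395, limma).

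Itgb2, the shared chain of the leukocyte integrins, fell by 2.96 ± 0.44 on the log2 scale (adjusted p = 0.0365, limma), with levels of -3.08 and -2.16 in ACKR4-positive cells and 0.07 and 0.60 in ACKR4-negative cells. Alpl, the tissue-nonspecific alkaline phosphatase gene, was at least 18-fold lower in ACKR4-positive cells (adjusted p = 0.00776, limma). Casp1, the caspase that matures interleukin 1 beta, rose by 1.85 ± 0.30 (adjusted p = 0.0451, limma), with levels of 2.62 and 3.07 in ACKR4-positive cells against 0.93 and 1.05 in ACKR4-negative cells. Without any 1 of the 4 arrays, 1 to 3 members of this list were called in place of 5, and the calls of Cd36 and Casp1 were lost in each of these 4 fits (adjusted p up to 0.240, limma). That of Itgb2 was lost without ACKR4-positive replicate 1 or either ACKR4-negative array (adjusted p up to 0.121), and that of Scarb1 without ACKR4-negative replicate 2 (adjusted p = 0.0519).

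Among relatives of Lbp in protein structure, Pltp, the phospholipid transfer protein gene, had levels of 1.11 and 1.11 in ACKR4-positive cells, against -0.79 and -0.11 in ACKR4-negative cells. Its log2 fold change of 1.56 ± 0.34 was not called (adjusted p = 0.0963), but was with the replicate block (adjusted p = 0.0177, limma). Bpi, the gene of a neutrophil protein that binds and neutralises endotoxin, was not well above background on any of the 4 arrays.

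Of the other microbial sensors, 10 of 21 were tested, 0 rose and 3 fell, with a median log2 fold change of -0.56. Tlr12, a sensor of profilin in mice, was at least 23.9-fold lower in ACKR4-positive cells, with levels of -7.51 and -7.19 against -1.55 and -0.64 in ACKR4-negative cells (adjusted p = 0.00871, limma). Nod2, the cytosolic sensor of muramyl dipeptide, was at least 9.61-fold lower (adjusted p = 0.0103, limma). Clec4d, a C-type lectin of myeloid cells, was at least 19.7-fold lower (adjusted p = 0.0266, and 0.0616 without ACKR4-negative replicate 2). Tlr5 and Cd180 were not well above background on any of the 4 arrays, and Tlr1 and Tlr6 only on ACKR4-negative replicate 2.

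Along with the 4 pan-endothelial markers, megakaryocyte and platelet markers and mural markers were lower in ACKR4-positive cells alongside these falls. Of 12 tested megakaryocyte and platelet markers 10 fell, with a summed signal of 1.28 and 2.78 in ACKR4-positive cells against 103 and 236 in ACKR4-negative cells. Of 10 tested mural and smooth muscle markers 4 fell, with a summed signal of 3.00 and 3.41 in ACKR4-positive cells against 60.5 and 102.5 in ACKR4-negative cells, and 9 fell with the replicate block. Over all tested genes 3.71% fell, and with the block 15.3% were called, 8.55% as fallen. Of the 12 megakaryocyte and platelet markers, 6 and 8 were well above background on the ACKR4-positive arrays, against all 12 on both ACKR4-negative arrays. Of 7 tested erythroid markers 3 fell, with a summed signal of 16.5 and 59.6 in ACKR4-positive cells against 385 and 28.4 in ACKR4-negative cells, which overlap. Most of each erythroid sum was Hba-a1, a haemoglobin gene, with levels of 4.02 and 5.89 in ACKR4-positive cells and 8.53 and 4.57 in ACKR4-negative cells. That overlap therefore rests on Hba-a1, and sums without it were not taken. Of 8 tested fibroblastic reticular markers 0 were called by limma, and 4 had an unadjusted p under 0.05. With the replicate block 5 of the 8 were called, Dcn and Col3a1 higher and Lepr, Tcf21 and Cxcl13 lower in ACKR4-positive cells. Among these falls, Itga2b, Tubb1, Gp5, Gp6, Myh11 and Gata1 were well above background in ACKR4-negative cells only. So were Cnn1 and Cxcl13, which were called with the block. These genes were tested only because they were bright in that group. The part of these cell types in the falls was not tested.

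The signalling machinery behind the receptors held no calls. Of 23 tested adaptors, kinases and transcription factors, of 18 tested inhibitors and of 7 tested folding and trafficking factors, 0 were called by limma, and 0, 1 and 2 had an unadjusted p under 0.05. Their median log2 fold changes were -0.04, -0.02 and 0.42. With the replicate block, 1 transcription factor, Irf5, and 1 inhibitor, Inpp5d, a lipid phosphatase gene of blood cells, were called lower in ACKR4-positive cells (adjusted p = 0.0287 and 0.0246, limma). Irf5 was not well above background on ACKR4-positive replicate 1. Ticam2, the bridging adaptor that links TLR4 to TRIF, was not well above background on any of the 4 arrays.

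Of the genes that endotoxin is known to induce, 12 of 26 were tested, 1 rose and 2 fell, with a median log2 fold change of -0.50. Cxcl10, a chemokine gene induced through interferon and TRIF, had levels of 6.36 and 6.90 in ACKR4-positive cells, against 3.48 and 3.72 in ACKR4-negative cells. It rose by 3.03 ± 0.33 (adjusted p = 0.0179, limma). Its second probe had levels of 1.73 and 3.49 in ACKR4-positive cells and 0.03 and 2.07 in ACKR4-negative cells, and the mean of both probes gave 2.30 (adjusted p = 0.138, limma).

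Selp, which encodes P-selectin of endothelium and platelets, fell by 3.36 ± 0.32 on the log2 scale (adjusted p = 0.0143, limma). Nos2, the inducible nitric oxide synthase gene, had a log2 fold change of -2.40 ± 0.33 (adjusted p = 0.0301, limma), with levels of 1.35 and 1.94 in ACKR4-positive cells against 3.95 and 4.14 in ACKR4-negative cells. Without any 1 array the log2 fold changes were 2.76 to 3.30 for Cxcl10, -3.65 to -3.08 for Selp and -2.70 to -2.11 for Nos2. Cxcl10, Selp and Nos2 each lost their call when 1 ACKR4-negative array was left out, whichever it was. Nos2 also lost its call without ACKR4-positive replicate 1. With the replicate block 2 of the 12 target genes rose and 5 fell, Icam1 being the further rise and Il6, Cxcl9 and Cxcl1 the further falls. Over all tested genes 6.75% rose and 8.55% fell with the block. Il6 was well above background in ACKR4-negative cells only, and was tested only because it was bright in that group. Tnf, the classical early target, was not well above background on any of the 4 arrays.

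**Figure D4:**
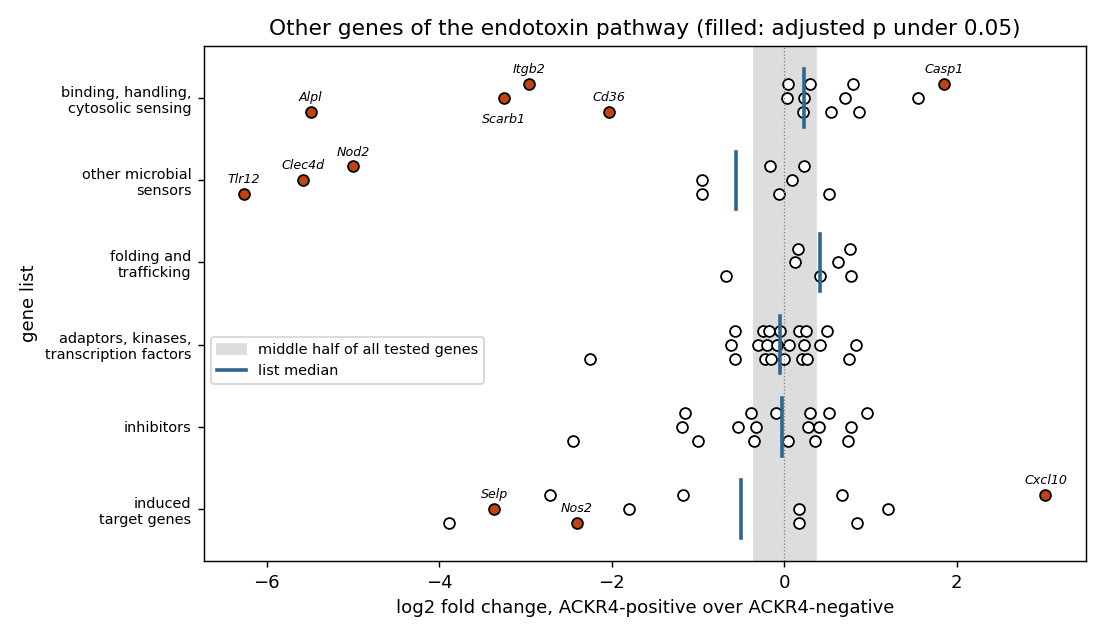
Log2 fold change of ACKR4-positive over ACKR4-negative cells (horizontal axis) for the tested genes of the 6 pathway lists, 1 point per gene, filled where called, with the list median as a blue bar and the interquartile range of all tested genes, -0.35 to 0.37, in grey. The called points lie in 3 lists, with Casp1 and Cxcl10 to the right and 9 genes to the left.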

How the data were processed

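The deposited scanner files come from Agilent Feature Extraction 10.7.3.1, per the submitters' processing notes. Their processed signal, used here, is a 1-colour intensity from which the authors' software had removed background and spatial trend, per the file headers, with surrogates for low values and no scaling between arrays. All 4 arrays lay on 1 slide in 1 scan. Here, each probe's unmarked spots were averaged on the log2 scale and the array's 75th percentile was subtracted. Dim probes were left out: a probe entered the test if, in 1 group or both, more than 50% of its spots exceeded background clearly on each array, and the brightest tested probe stood for a gene. Probes were named through RefSeq accessions or current symbols where these matched. Groups were compared with limma 3.58.1 in R 4.3.3 (lmFit and eBayes, 2-sided), adjusted by Benjamini-Hochberg over 17362 genes, and the fit was tested on simulated data. For "at least" folds, a level that no array of a group measured was replaced by that array's lowest detected level where this was higher. With 2 arrays per group the number of arrays limits the precision. The labels give replicate 1 of both groups 1 mouse number and replicate 2 another, so the replicate number was read as the sort. Deviations of same-numbered arrays from their group means correlated at 0.605 over genes.

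The members, the lists and their markers were chosen with earlier results of these data known. The rule for named genes took the 9 members, Ackr4, up to 6 called genes of each pathway list, markers with small p, and the 3 genes most like a called member. Outside that rule, after their values were seen, Pltp, Bpi, Ptprc, Irf5, Inpp5d, Icam1, Il6, Cxcl9, Cxcl1, Ticam2, Tnf, Tlr1, Tlr5, Tlr6, Cd180, Pecam1, Cdh5, Dcn, Col3a1 and several macrophage markers were named. So were Csf3r, Hba-a1, Stab1, Stab2, Oit3, Emcn, Cnn1, Gp5 and Gp6. The marker sums without Mrc1 or Clec4g were also chosen after seeing the data. Alternatives covered background correction, normalization, filters, the authors' deposited table, probe choice, the prior, the replicate block and leaving out each array. The deposited table holds intensity on a linear scale, and its log2 values correlated with the scanner levels at 0.995 to 0.998.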

Additional observations from a re-analysis of the deposited data

How the results depend on the processing

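Lbp kept its direction and its call in all 15 alternatives, with log2 fold changes of 3.89 to 5.12, the lowest with normexp background correction (adjusted p = 5.74e-04 to 0.0260, limma). Cd14 was negative in all 15 (-2.53 to -1.29) and was called with the replicate block alone (-1.91, adjusted p = 0.0313), which raised the members called to 2. Ly96, Tlr2 and Myd88 kept their direction and stayed uncalled. The near-zero values of 3 uncalled members changed sign. Tlr4 was -0.016 with normexp and -0.49 to 0.50 without 1 array, Nod1 -0.16 to 0.24 and Ticam1 -0.12 to 0.52 without 1 array. Over all genes, 441 were called with the stricter filter, 2656 with the replicate block, and 387 to 892 without 1 array, where members called stayed at 1. The stricter filter left fewer genes to test, and 0 other microbial sensors were called under it. With normexp, Nod2 was -1.66 (adjusted p = 0.0744), and Tlr12 (-2.61), Clec4d (-2.32) and Alpl (-2.28) stayed called. Cd36 was not called with quantile normalization, and neither Cd36 nor Casp1 without a filter or with the stricter one (adjusted p = 0.0503 to 0.130). Median centring moved the median of all genes to 0.11. All arrays shared 1 slide, so a block for slide could not be fitted. Tlr3 lay too near background for a test.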
